A study of Homo sapiens with 12 samples.

Results

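The comparison described here sets 3 libraries of EndoC-βH1 cells given TUNAR siRNAs and 1-AKP against 3 libraries given a negative control siRNA and 1-AKP, 6 of the 12 libraries of the study. They were chosen by their labels alone. EndoC-βH1 is an established human beta-cell line derived from fetal pancreas, so the data describe a single line and not islets. Cells grown in medium with 5.5 mM glucose were transfected with AllStars negative control siRNA or with pre-designed siRNAs against TUNAR by a lipid reagent. After 2 days, all 6 cultures received 1-AKP, an inhibitor of the kinase GSK3, at 5 µM for 24 hours, so both groups carry the inhibitor and the transfection. DMSO, the solvent, is listed at a dilution of 1 in 1000 for all 12 libraries. The other 6 libraries had the same siRNAs and DMSO without 1-AKP. They were used for the spread of each gene and as a repeat of the siRNA comparison. In each group, replicates 1 and 2 were cells of passage 74, and replicate 3 was of passage 75. Below, control libraries are the 3 with negative siRNA and 1-AKP, and knockdown libraries the 3 with TUNAR siRNAs and 1-AKP. The labels do not say whether libraries with the same number share a culture or a transfection, so p-values measure the spread between these samples, which may be technical.

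TUNAR, on chromosome 14, was described as a long noncoding RNA of stem cells and neural tissue, and it also holds a short open reading frame for a small transmembrane protein of the endoplasmic reticulum that binds the calcium pump SERCA2. siRNAs load into the Argonaute complex and guide it to cut a matching RNA. GSK3 marks beta-catenin for destruction, so its inhibition stabilises beta-catenin and turns on Wnt target genes. In beta cells, glucose metabolism closes potassium channels, opens calcium channels and releases insulin granules, and calcium from the endoplasmic reticulum modulates that release. The siRNA sequences are not used here. The coding sequence of TUNAR is shown because the siRNAs lower the RNA that carries it. It is identical in the 3 TUNAR transcripts of GENCODE release 29 (GRCh38), has 147 bases including the stop codon, and is written 5′ to 3′ with the start and stop codons in capitals.

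TUNAR coding sequence: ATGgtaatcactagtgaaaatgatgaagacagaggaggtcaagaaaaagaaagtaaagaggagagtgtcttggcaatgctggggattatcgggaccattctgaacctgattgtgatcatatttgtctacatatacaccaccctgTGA

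The cells carried their beta-cell label: with negative siRNA and 1-AKP, INS stood at 24281 ± 2738 FPKM (SD, n = 3), PDX1 at 119 ± 5.02 FPKM, NKX6-1 at 80.2 ± 0.671 FPKM and MAFA at 27.7 ± 7.02 FPKM. Totals ran from 15653786 to 15986834 expected counts, and a low-count filter kept 15990 genes. Over the 6 libraries the first principal component (37.1% of the variance) set replicate 1 of both groups, at -25.2 and -26.4, apart from the other 4, at 7.59 to 16.8. The second component (18.3%) separated the siRNAs, at -18.1, -7.92 and -10.2 with negative siRNA and 18, 13 and 5.17 with TUNAR siRNAs. Differences between replicate numbers were therefore larger than those between siRNAs, and genes were tested in an unpaired fit and in a paired fit that compares libraries of the same number, each pair within 1 passage.

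TUNAR itself (Entrez Gene 100507043) stood at 27.9, 31 and 30.8 CPM (normalised counts scaled to a common library size) in replicates 1, 2 and 3 of the control libraries. In the knockdown libraries it stood at 6.95, 10.5 and 13.6 CPM. The groups did not overlap, and the mean went from 29.9 ± 1.69 to 10.3 ± 3.32 CPM (SD, n = 3), which left 34.5% of the RNA. What was left differed between pairs: 24.9% in pair 1, 33.8% in pair 2 and 44.1% in pair 3. In DMSO the order was the same, at 26.6%, 36.1% and 45.8%. The paired fit gave a log2 fold change of -1.54 (SE 0.164, adjusted p = 0.00426, edgeR's quasi-likelihood test), and the unpaired fit -1.53 (SE 0.245, adjusted p = 0.159). The paired call ended without replicate 2 (adjusted p = 0.204). A two-sided exact permutation test of the CPM means gave p = 0.1, and 3 libraries against 3 cannot go lower. Strand marking is not stated in the labels, so reads of an antisense transcript at the locus could not be told from those of TUNAR. The fold change in 1-AKP differed from that in DMSO by -0.09 (adjusted p = 1).

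**Figure D1:**
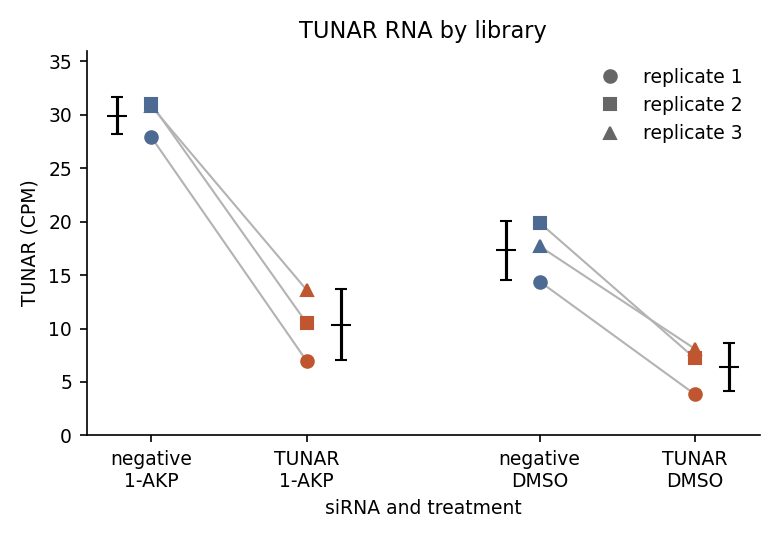
TUNAR level (CPM, vertical axis) in each of the 12 libraries by siRNA and treatment; points are libraries, lines join replicate numbers and bars show mean ± SD of 3. In 1-AKP every library with TUNAR siRNAs, at 6.95 to 13.6 CPM, lies below every library with negative siRNA, at 27.9 to 31 CPM.

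Beyond TUNAR, the differences were small, and how many passed depended on the pairing. The unpaired fit was planned as the main test and the paired fit as an alternative. In the unpaired fit 0 of 15990 genes passed an adjusted p of 0.05 in edgeR (0%), 743 had an unadjusted p under 0.05 (4.65%) and DESeq2 called 15. In the paired fit 481 genes passed (3.01% of those tested), 253 higher (1.58%) and 228 lower (1.43%) with TUNAR siRNAs. Below, "rose" and "fell" mean past the threshold in this paired fit, and log2 fold changes and adjusted p come from it unless stated. In bulk RNA, fewer cells of a type and less RNA per cell cannot be told apart. The median size of the called changes was 0.21 on the log2 scale, and 46 exceeded 0.5. The sign was the same in all 3 pairs for 475 of them. The groups did not overlap for 242 (50.3%), against 8.97% of all genes tested (4.5% higher and 4.47% lower with TUNAR siRNAs), although the test itself favours such genes. Without replicate 1, 2 or 3 the paired fit called 339, 101 and 242 genes, and 55 of the 481 (29 risen, 26 fallen) were called each time. Where a gene's adjusted p is given below without 1 replicate number only, its call may also have ended without another. With the pairing, DESeq2 called 155, of which 148 were among the 481, and limma on log2 FPKM 18, of which 14 were.

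The lowest unpaired adjusted p, 0.0872, belonged to B4GALT4, a galactosyltransferase of the Golgi that extends sugar chains. It stood at 81, 79.4 and 73 CPM in the control and at 53.6, 56.6 and 56.4 CPM in the knockdown libraries. The groups lay well apart, and it fell by 0.49 (SE 0.0547, adjusted p = 1.41e-05 in edgeR's paired fit). ERLIN2, an endoplasmic reticulum protein that takes part in degrading IP3 receptors, stood at 74, 64.4 and 70.7 CPM and at 53.2, 51.6 and 49 CPM. It fell in every pair, by 0.44 overall (adjusted p = 5.02e-07), with an unpaired adjusted p of 0.102. SYPL1, a relative of the vesicle protein synaptophysin, stood at 113, 106 and 105 CPM and at 76.3, 70.4 and 82.4 CPM. It fell by 0.50 (adjusted p = 0.00664), a call that ended without replicate 2 (adjusted p = 0.137). TECPR2, a protein of autophagy and of export from the endoplasmic reticulum, stood at 26.5, 27.6 and 30.3 CPM and at 39.6, 35.9 and 36.5 CPM, and rose by 0.41 (adjusted p = 8.85e-05). PDHA1, the catalytic E1 alpha subunit of pyruvate dehydrogenase, stood at 117, 120 and 123 CPM and at 88.4, 97.4 and 100 CPM, and fell by 0.33 (adjusted p = 1.34e-06). These are the 5 genes with the lowest unpaired p, and B4GALT4, ERLIN2, TECPR2 and PDHA1 kept their paired call without any 1 replicate number.

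**Figure D2:**
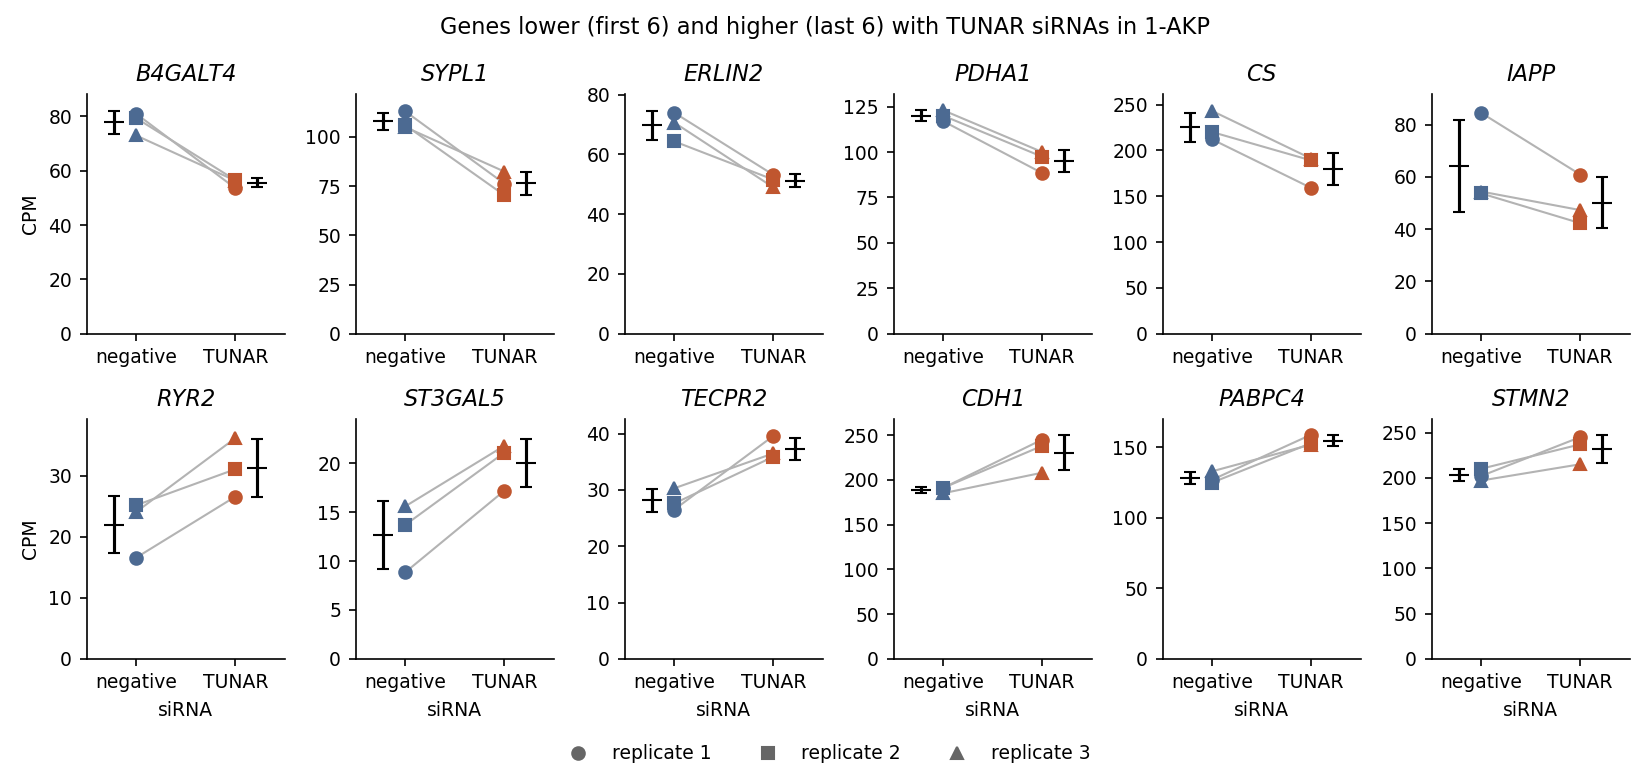
CPM (vertical axis, from 0) of 12 genes that passed the paired test in the 6 libraries with 1-AKP; points are libraries, lines join replicate numbers and bars show mean ± SD of 3. B4GALT4, SYPL1, ERLIN2, PDHA1, CS and IAPP are lower and RYR2, ST3GAL5, TECPR2, CDH1, PABPC4 and STMN2 are higher with TUNAR siRNAs in every pair, although the groups overlap for IAPP.

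Several further genes were singled out after their values were seen, for having the lowest p in the paired fit or for keeping their call without any 1 replicate number. CS, AK3 and HADHB, enzymes of mitochondria, were among the fallen ones beside PDHA1. CS, citrate synthase, stood at 212, 220 and 243 CPM in the control and 159, 189 and 191 CPM in the knockdown libraries, with no overlap between groups (-0.32, SE 0.0344, adjusted p = 4.99e-07). AK3, the adenylate kinase of the mitochondrial matrix, stood at 114, 104 and 99.1 CPM and 86.9, 82.1 and 86.7 CPM (-0.31, adjusted p = 3.94e-05). HADHB, the beta subunit of the trifunctional enzyme of fatty acid oxidation, stood at 86.3, 83.9 and 79.5 CPM and 73.9, 66.1 and 65.7 CPM (-0.28, adjusted p = 9.98e-05). Of the 34 tested members of the oxidative phosphorylation list 0 passed, beside 3.01% of all genes tested, and their median was -0.02 beside 0.00. The pentose phosphate enzyme PGD went from 278, 264 and 282 CPM to 221, 241 and 242 CPM (-0.23, adjusted p = 4.41e-05).

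Some of these genes encode proteins of the cell surface and matrix. CDH1, the adhesion protein E-cadherin, stood at 191, 191 and 185 CPM in the control and 245, 238 and 208 CPM in the knockdown libraries. It rose by 0.29 (SE 0.035, adjusted p = 6.71e-06 in edgeR), with the smallest rise in pair 3. FN1, the matrix glycoprotein fibronectin, stood at 26.2, 82.3 and 107 CPM and 41.9, 123 and 141 CPM. Its level varied more between replicate numbers than between siRNAs, and it rose in each pair, by 0.68, 0.58 and 0.40 (adjusted p = 9.05e-06). DCHS1, a large protocadherin, rose by 0.43, SDC2, the heparan sulfate proteoglycan syndecan 2, by 0.25, and SULF1, an enzyme that trims heparan sulfate outside the cell, by 0.45 (adjusted p = 9.05e-06, 7.61e-05 and 0.000374). COL4A2, a basement membrane collagen chain, fell by 0.36 (adjusted p = 1.34e-06), from 103 ± 14.6 to 80.5 ± 7.74 CPM (SD, n = 3). Each of these calls held without any 1 replicate number, which was part of how the genes were chosen.

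Other genes of this kind included IGF2, the fetal insulin-like growth factor, at 1375, 1252 and 1133 CPM in the control and 1121, 1094 and 1025 CPM in the knockdown libraries, which fell by 0.21 (adjusted p = 9.05e-06 in edgeR). APOB, the apolipoprotein of secreted lipoprotein particles, fell by 0.26, and TLE3, a corepressor that binds TCF factors, by 0.40 (adjusted p = 0.00034 for each). JPT2, a protein that binds the calcium messenger NAADP, fell by 0.31 (adjusted p = 4.99e-07). RAMP1, a partner subunit of peptide hormone receptors, also fell by 0.31 (adjusted p = 6.42e-05). The kinase RPS6KA3 fell by 0.19 (adjusted p = 3.28e-05). CRYBA2, a crystallin gene, went from 248, 425 and 493 CPM to 291, 494 and 563 CPM, a rise of 0.24, 0.22 and 0.19 in the pairs (adjusted p = 9.05e-06). PABPC4, a cytoplasmic poly(A)-binding protein, stood at 127, 125 and 133 CPM and 159, 153 and 152 CPM and rose by 0.27 (adjusted p = 3.19e-05). MAL2, a protein of vesicle transport to the cell apex, rose by 0.23, and SYT11, a synaptotagmin, by 0.24 (adjusted p = 5.17e-05 and 6.42e-05). ONECUT2, a transcription factor of the developing pancreas, rose by 0.22 (adjusted p = 0.000731), and its groups overlapped at 66.4 to 91.3 and 77.6 to 107 CPM.

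LIMS3, FSBP, MTRNR2L2 and MTRNR2L8 were also called in each of those fits, but they are near copies of other genes or overlap one, so reads may have been divided between them and the other locus. LIMS3 was at 0 in all 3 libraries with negative siRNA and at 2.77, 5.95 and 0 CPM in the knockdown libraries, so the groups overlapped at 0. FSBP was at 2.84, 0 and 2.42 CPM and at 0, 0 and 0.19 CPM. No fold is given for them.

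The largest changes among expressed genes mostly concerned low levels and depended on single replicate numbers. Of the 12 risen and 12 fallen genes of largest fold change at a mean log2 CPM of at least 1, ST3GAL5 alone kept its call without any 1 replicate number. ST3GAL5, the enzyme that makes the ganglioside GM3, stood at 8.85, 13.7 and 15.6 CPM in the control and 17.2, 21.1 and 21.8 CPM in the knockdown libraries. It rose by 0.67 (SE 0.086, adjusted p = 9.05e-06 in edgeR), and its groups did not overlap. SLC26A4, the anion exchanger pendrin, went from 1.83, 1.7 and 1.59 CPM to 3.93, 3.93 and 2.35 CPM (0.98, adjusted p = 0.00641; 0.204 without replicate 2). SHISA6, an auxiliary protein of glutamate receptors, went from 1.73 ± 0.408 to 3.36 ± 0.411 CPM (0.96, adjusted p = 0.00664; 0.126 without replicate 2). The proton-gated channel subunit gene ASIC4 rose by 0.61, the matrix metalloproteinase gene MMP2 by 0.54, and GPR179 by 0.53 (adjusted p = 0.0108, 0.000858 and 0.000671), and each call ended without replicate 2 (adjusted p = 0.19, 0.181 and 0.116). RNF152, NYNRIN, CYYR1 and BAALC completed the risen genes beside RGMA and GPR119, with fold changes of 0.84, 0.79, 0.59 and 0.59.

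Among the fallen genes of this kind, SSTR5, an inhibitory somatostatin receptor, stood at 6.45, 2.46 and 2.1 CPM in the control and 3.28, 1.84 and 1.71 CPM in the knockdown libraries. Its groups overlapped, and the largest difference lay in pair 1. It fell by 0.65 (adjusted p = 0.0437 in edgeR), a call that ended without replicate 1, 2 or 3 (adjusted p = 0.66, 0.17 and 0.0637). GRB10, an adaptor that binds and restrains the insulin receptor, went from 5.56, 7.06 and 6.74 CPM to 4.12, 5.13 and 3.68 CPM (-0.58, adjusted p = 0.013; 0.219 without replicate 3). PRDM16, a zinc finger transcription factor, went from 4.81 ± 0.662 to 3.08 ± 0.527 CPM (-0.64, adjusted p = 0.0214; 0.349 without replicate 1). F8, the gene of coagulation factor VIII, NTNG2, netrin G2, FER1L5, a ferlin, and HHIPL1 fell by 0.64, 0.58, 0.56 and 0.72. SYNE3, a nesprin of the nuclear envelope and 1 of 12 tested neighbours of the TUNAR locus, went from 6.89, 7.69 and 6.68 CPM to 3.47, 5.57 and 4.95 CPM. It fell by 0.61 (adjusted p = 0.00902, and 0.166 without replicate 1). Of the other neighbours 0 passed, beside 3.01% of all genes tested, and the list median was 0.00. PRH1, OR2A9P and ANKRD20A3P, with fold changes of -0.62, -0.87 and -0.93, overlap or resemble other loci and are uncertain.

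Genes of neural tissue, where TUNAR was first described, are expressed in many endocrine cells. Of 27 tested neural genes 4 rose and 1 fell, beside 1.58% and 1.43% of all genes tested. The median fold change was 0.06, beside 0.00 over all genes tested. DCX, a microtubule protein of young neurons, stood at 120, 129 and 129 CPM in the control and 148, 151 and 141 CPM in the knockdown libraries. The groups did not overlap, and DCX rose by 0.22 (adjusted p = 0.00034 in edgeR; 0.0531 without replicate 2). STMN2, which binds tubulin in growing neurites, stood at 202, 210 and 197 CPM and 245, 237 and 215 CPM, and rose by 0.19 (adjusted p = 0.00043), a call kept without any 1 replicate number. CNTN1, the adhesion protein contactin 1, rose by 0.15 from 620 ± 2.54 to 689 ± 43.1 CPM (adjusted p = 0.00456; 0.0802 without replicate 2). SOX11, a transcription factor of immature neurons, rose by 0.20 (adjusted p = 0.0119; 0.3 without replicate 2). MAP1B, a microtubule-associated protein of axons, moved the other way. It stood at 300, 337 and 334 CPM and 227, 275 and 265 CPM, without overlap, and fell by 0.34 (SE 0.0369, adjusted p = 9.05e-06), also without any 1 replicate number. GAP43, at 0.81, did not pass (adjusted p = 0.066). The neural list counted 5, 1 and 3 risen without replicate 1, 2 and 3, with 1 fallen each time.

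Axon guidance genes encode ligands and receptors that steer growing neurites and also act in islets. Of 25 tested, 6 rose, 0 fell and 22 had a fold change above 0, with a median of 0.12. Over all genes tested, 1.58% rose, 1.43% fell and 7924 of 15990 lay above 0. The receptor genes NEO1, for neogenin, and PLXND1, for plexin D1, rose by 0.22 and 0.29 (adjusted p = 0.000795 and 0.00269 in edgeR). NEO1 stood at 255, 260 and 261 CPM in the control and 315, 310 and 281 CPM in the knockdown libraries, and PLXND1 at 31.2, 32.3 and 30.6 CPM and 33.6, 41.1 and 40.9 CPM. Neither gene overlapped between groups, but the smallest rise was in pair 3 for NEO1 and in pair 1 for PLXND1. ROBO1, a Slit receptor, rose by 0.13, the plexin gene PLXNA2 by 0.13 and the semaphorin gene SEMA6A by 0.18. RGMA, a ligand of neogenin, rose by 0.66 at a low level, from 2.41 ± 0.441 to 3.8 ± 0.194 CPM (adjusted p = 0.0495). Every one of these 6 calls ended without replicate 2, where the list counted 0 risen, and 4 and 2 were risen without replicate 1 and 3. The RGMA call ended without each replicate number in turn. In DMSO 6 members rose and 0 fell, beside 1.71% and 1.36% of all genes tested there. Guidance genes are long, and with the trend of fold change on gene length removed 3 rose and the median was 0.09.

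The endoplasmic reticulum holds the calcium store that SERCA2 fills. Of 20 tested genes of its calcium handling, 2 rose and 1 fell, beside 1.58% and 1.43% of all genes tested. The list median was 0.00. RYR2, the ryanodine receptor through which calcium leaves the store, stood at 16.6, 25.2 and 24.1 CPM in the control and 26.6, 31.1 and 36.2 CPM in the knockdown libraries. The groups did not overlap, and RYR2 rose by 0.51 (SE 0.0709, adjusted p = 2.81e-05 in edgeR), a call kept without any 1 replicate number, while its unpaired adjusted p was 0.944. CALR, the luminal calcium-binding chaperone calreticulin, stood at 1306, 1232 and 1206 CPM and 1124, 1170 and 1056 CPM, and fell by 0.16 (adjusted p = 0.000357), again kept each time. Its membrane-bound relative CANX, calnexin, rose by 0.10 (adjusted p = 0.0406), a call that ended without replicate 1, 2 or 3 (adjusted p = 0.355, 0.246 and 0.0659). ATP2A2, the gene of SERCA2, was at 0.04 (adjusted p = 0.484), and the IP3 receptor genes ITPR1, ITPR2 and ITPR3 were at -0.01, 0.11 and 0.05, none past the threshold.

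The unfolded protein response list, which shares CALR and CANX, had a median of 0.04. Of its 28 tested genes 4 rose and 1 fell, beside 1.58% and 1.43% of all genes tested. Its risen members were chaperones and disulfide isomerases of the endoplasmic reticulum. HSPA5, the chaperone BiP, stood at 939, 953 and 963 CPM in the control and 1105, 1024 and 1008 CPM in the knockdown libraries, and rose by 0.13 (adjusted p = 0.0108 in edgeR; 0.106 without replicate 2). PDIA4 and PDIA3 rose by 0.14 and 0.11 (adjusted p = 0.00634 and 0.00965; 0.112 and 0.193 without replicate 2), and the groups overlapped for neither. The stress transcripts ATF4, DDIT3 and XBP1 were at -0.06, -0.05 and 0.05, none past the threshold. Without replicate 1, 2 and 3 the list counted 1, 0 and 3 risen.

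**Figure D3:**
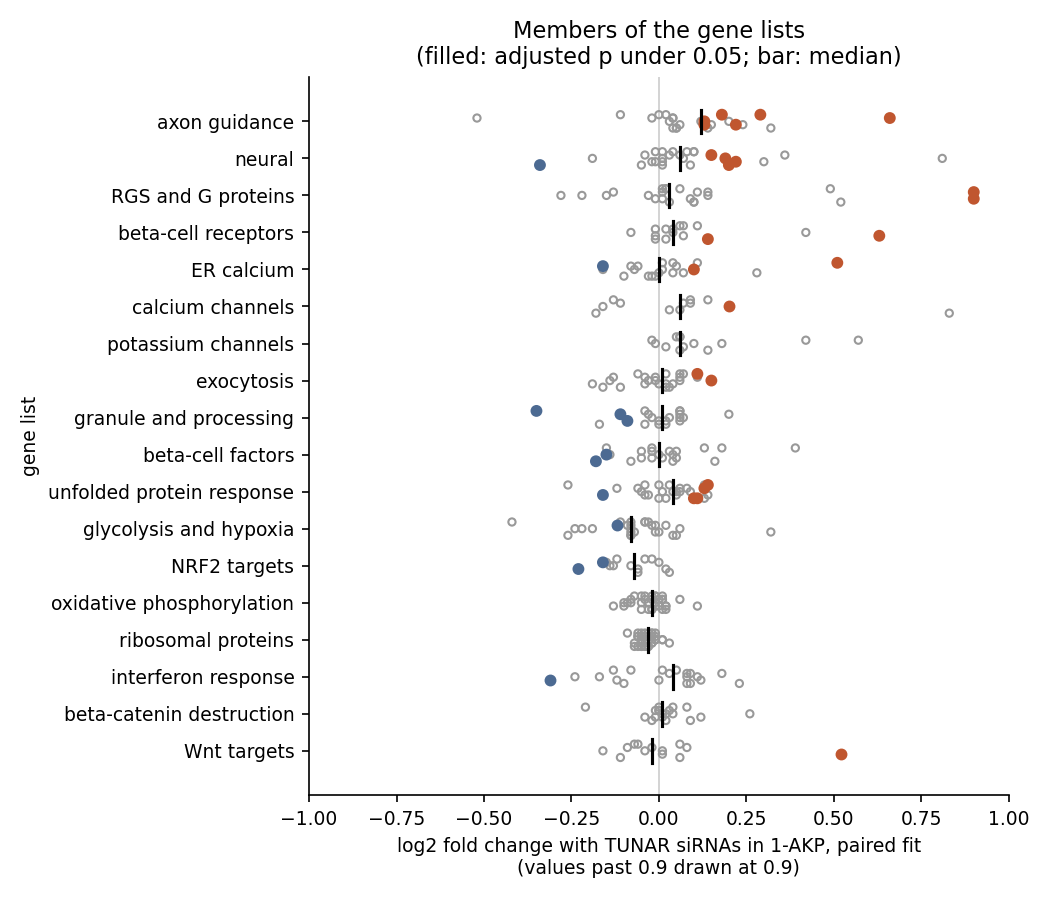
Log2 fold change with TUNAR siRNAs in 1-AKP (horizontal axis, paired fit) of each tested member of 18 gene lists (vertical axis); filled points passed an adjusted p of 0.05 and black bars are list medians. Most members lie near 0, with the axon guidance median highest at 0.12 and the glycolysis and hypoxia median lowest at -0.08 among the lists drawn.

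Of the beta-cell transcription factors, 0 rose and 2 fell of 21 tested, beside 1.58% and 1.43% of all genes tested. The list median was 0.00. PDX1, the master factor of pancreas and beta cells, stood at 292, 313 and 319 CPM in the control and 256, 293 and 284 CPM in the knockdown libraries. The groups overlapped slightly, and PDX1 fell by 0.15 (adjusted p = 0.00196 in edgeR; 0.0769 without replicate 3). NKX6-1, a factor of beta-cell identity, stood at 89, 88 and 88.3 CPM and 69.7, 81.1 and 83.9 CPM, and fell by 0.18 (adjusted p = 0.0224; 0.401 without replicate 1). MAFA was at -0.14, NEUROD1 at 0.00 and PAX6 at 0.05, none past the threshold.

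Hormone granule genes had 0 risen and 3 fallen of 20 tested, beside 1.58% and 1.43% of all genes tested. Their median was 0.01. IAPP, the amyloid peptide released with insulin, stood at 84.5, 53.7 and 54.4 CPM in the control and 60.9, 42.3 and 47.3 CPM in the knockdown libraries. It was higher in replicate 1 of both groups, which made them overlap, and it fell in each pair, by 0.35 overall (SE 0.0485, adjusted p = 2.99e-05 in edgeR), a call kept without any 1 replicate number. CHGB, the granule protein chromogranin B, fell by 0.11 (adjusted p = 0.011), and PCSK1, the proinsulin convertase, by 0.09 (adjusted p = 0.0426), and the calls of both ended without each replicate number in turn. INS, the insulin gene, stood at 9410, 11187 and 11820 CPM and 9207, 11975 and 12851 CPM, groups that overlapped, with a fold change of 0.06 (adjusted p = 0.264).

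Of the genes of glucose sensing, calcium channels, exocytosis and potassium channels, 2 of 12, 1 of 12, 2 of 24 and 0 of 13 were called, beside 3.01% of all genes tested. TXNIP, a thioredoxin inhibitor that glucose induces, went from 8.09, 6.37 and 4.2 CPM to 11.8, 6.9 and 8.19 CPM and rose by 0.53 (adjusted p = 0.0187 in edgeR; 0.252 without replicate 3). G6PC2, the islet glucose-6-phosphatase, stood at 38.1, 153 and 223 CPM and 35.4, 144 and 192 CPM. Its level differed several-fold between replicate numbers in both groups, and it fell by 0.15 (adjusted p = 0.0247; 0.523 without replicate 3). CACNA1C, an L-type calcium channel subunit, stood at 56.4, 56.5 and 53.4 CPM and 63.1, 64.3 and 63.9 CPM, without overlap. It rose by 0.20 (adjusted p = 0.00747, and 0.132 and 0.153 without replicate 2 and 3). With the length trend removed, or in DESeq2 with the pairing, 0 calcium channel genes were called higher. Both called exocytosis genes rose. CADPS, a priming factor of dense-core vesicles, rose by 0.11 (adjusted p = 0.0186, and 0.404 without replicate 2). SYT4, a synaptotagmin, rose by 0.15 (adjusted p = 0.0344), a call that ended without replicate 1, 2 or 3 (adjusted p = 0.243, 0.0958 and 0.262). The median of the potassium channel genes was 0.06.

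Of the beta-cell receptor genes 2 of 15 were called, and of the genes of RGS proteins and G protein subunits 2 of 23, beside 3.01% of all genes tested. All but SSTR3 of these 4 genes had levels of a few CPM. GPR119, a lipid-sensing receptor that raises cAMP in beta cells, went from 2.66, 2.77 and 1.72 CPM to 4.38, 3.86 and 2.86 CPM. It rose by 0.63 (adjusted p = 0.0348 in edgeR), a call that ended without replicate 1, 2 or 3 (adjusted p = 0.231, 0.168 and 0.191). SSTR3, a somatostatin receptor, rose by 0.14 from 125 ± 11 to 138 ± 14.1 CPM (adjusted p = 0.0291; 0.366 without replicate 2). RGS proteins shorten G protein signals, and both called genes of that list rose. RGS6 went from 1.33, 0.378 and 0.445 CPM to 2.64, 2.72 and 1.27 CPM, overlapping in replicate 1 with negative siRNA (1.64, adjusted p = 0.00162; 0.181 without replicate 2). RGS9 went from 1.14, 0.82 and 1.02 CPM to 2.7, 2.15 and 1.27 CPM (1.02, adjusted p = 0.0201; 0.275 without replicate 2). In DMSO 4 genes of this list rose, beside 1.71% of all genes tested there.

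Glycolysis and hypoxia genes had 6 of 27 tested members above 0 and a median of -0.08, against 7924 of 15990 above 0 over all genes. Of the 27, 0 rose and 1 fell, beside 1.58% and 1.43% of all genes tested. The fallen gene was ALDOA, the glycolytic enzyme aldolase A, at 270, 293 and 272 CPM in the control and 228, 271 and 268 CPM in the knockdown libraries (-0.12, adjusted p = 0.0348 in edgeR; 0.419 without replicate 1). GAPDH, LDHB and VEGFA, at -0.08, -0.11 and -0.09, did not pass (adjusted p = 0.0704, 0.0705 and 0.0716). LDHA did not pass in this fit either, but it was called lower in paired edgeR fits of each treatment's 6 libraries alone. It was at -0.26 in 1-AKP and -0.25 in DMSO there (adjusted p = 0.0044 and 0.000334). With the length trend removed, or with a replicate block common to both treatments, 0 members of this list were called lower. NRF2 targets, the antioxidant genes, had a median of -0.07 with 0 risen and 2 fallen of 14, namely PGD and FTL. FTL, the ferritin light chain, stood at 3083, 2538 and 2270 CPM and 2786, 2182 and 2087 CPM and fell by 0.16 (adjusted p = 7.82e-05; 0.0571 without replicate 2). Of 16 Golgi glycosylation genes B4GALT4 and MGAT4A fell and 0 rose, at a median of -0.03. MGAT4A, which adds a branch to N-linked sugars, stood at 290, 261 and 247 CPM and 228, 219 and 218 CPM (-0.26, adjusted p = 9.05e-06), without overlap. None of 38 ribosomal protein genes passed, and 3 lay above 0, at a median of -0.03.

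In the Wnt pathway 0 to 1 genes of each list passed the test between the siRNAs while GSK3 was inhibited, counts too small to be set apart from the 3.01% called over all genes tested. Of 19 genes of the beta-catenin destruction complex 0 passed, at a median of 0.01. CTNNB1, the gene of beta-catenin, stood at 371, 345 and 336 CPM in the control and 383, 343 and 330 CPM in the knockdown libraries (0.01, adjusted p = 0.972 in edgeR), and GSK3A and GSK3B were at -0.02 and 0.04. AXIN2, a standard target of beta-catenin, stood at 9.86, 9.77 and 8.33 CPM and 8.69, 8.93 and 10 CPM (-0.02, SE 0.113, adjusted p = 0.979). Of 13 Wnt targets TCF4 rose and 0 fell. TCF4 here is the basic helix-loop-helix factor, not TCF7L2, and it went from 7.71, 12.4 and 12.2 CPM to 14.9, 15.1 and 16 CPM (0.52, adjusted p = 0.00287; 0.0749 without replicate 1). DKK3, a secreted relative of Dickkopf, was the 1 risen of 5 Wnt antagonists, at 25.6, 21.9 and 19.3 CPM and 33.3, 28.1 and 22.8 CPM (0.33, adjusted p = 0.00293; 0.0927 without replicate 2). ROR2, a receptor of noncanonical Wnt ligands, was the 1 fallen of 20 ligand and receptor genes (-0.15, adjusted p = 0.0426). The ROR2 call ended without replicate 1, 2 or 3 (adjusted p = 0.253, 0.282 and 0.0997). Among 28 genes of G2 and mitosis MKI67, a proliferation marker, rose by 0.15 from 240 ± 13.5 to 266 ± 20.8 CPM (adjusted p = 0.00273; 0.131 without replicate 3). Among 29 S-phase genes UHRF1, which helps to copy DNA methylation, fell by 0.32 (adjusted p = 0.00367; 0.19 without replicate 2). EZH2, the polycomb methyltransferase, was at 0.01 (adjusted p = 0.937), and 0 of 18 polycomb genes passed.

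Of the remaining lists, those of p53 targets (15 tested), immediate early genes (16), RNA interference machinery (13), G1 regulators (13) and proteins that bind TUNAR (3) had 0 called members. Over all genes tested 3.01% were called. The interferon list had 1 fallen of 20, MX2 (-0.31, adjusted p = 0.0283 in edgeR). The MX2 call ended without replicate 1, 2 or 3 (adjusted p = 0.276, 0.183 and 0.0951). The summed level of the interferon list was 455 to 488 CPM in the control and 463 to 490 CPM in the knockdown libraries. MSMO1, a cholesterol synthesis enzyme, was the 1 fallen of 29 lipid synthesis genes (-0.11, adjusted p = 0.0415; 0.507 without replicate 2). Most defining markers of other cells were low or at 0, but several markers were not. The 8 markers of other islet cells that were found summed to 1331 to 1708 CPM in the control and 1257 to 1584 CPM in the knockdown libraries, ranges that overlap, and most of it was TTR, the hormone carrier transthyretin, at 1279 ± 161 and 1207 ± 136 CPM (SD, n = 3), which did not pass (-0.08, adjusted p = 0.0567). Of the 5 tested markers DPP4, a surface peptidase, fell from 180 to 160 CPM (-0.17, adjusted p = 0.00424; 0.19 without replicate 2), while GCG averaged 0.147 and 0.298 CPM and SST 12.5 CPM in both groups. Of 7 endothelial and blood markers VWF was at 0 in all 6 libraries and PTPRC averaged 0.591 and 0.978 CPM. Their sum was 57.7 to 72.4 CPM in the control and 51.8 to 59.5 CPM in the knockdown libraries, ranges that overlap, and most of it was CD68. CD68, a lysosomal glycoprotein that also marks macrophages, stood at 53.7, 43 and 34.7 CPM and 39.7, 28.3 and 28 CPM and fell by 0.45 (adjusted p = 4.41e-05), a call kept without any 1 replicate number. The 8 duct and acinar markers found summed to 74.0 to 89.3 CPM and 76.8 to 94.8 CPM, most of it KRT19, a keratin of ducts, at 56.8 and 62.7 CPM. Of these markers CTRB1 and AMY2A were at 0 in all 6 libraries, and 0 of 3 tested passed. The 6 fibroblast markers found summed to 2.93 to 6.76 CPM and 2.73 to 5.92 CPM. The part of other cells in the results was not tested.

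The libraries with DMSO repeat the siRNA comparison without sharing a library with it. They have the same passages by replicate number, and the labels do not say whether same-numbered libraries share a culture or a transfection. The comparisons in DMSO and in 1-AKP may therefore not be independent. In paired fits made on each treatment's 6 libraries alone, 369 genes were called in 1-AKP (2.31% of those tested) and 779 in DMSO (4.87%). Of the 369, 359 (97.3%) had the same sign in DMSO, against 65.5% of all genes tested. Both fits called 257 genes in the same direction, 136 risen and 121 fallen, which is 69.6% of the 1-AKP calls and 33% of the DMSO calls. The genes risen in 1-AKP had a median of 0.23 there and 0.18 in DMSO, and the fallen ones -0.24 and -0.2. B4GALT4, ERLIN2, CS, PDHA1, MAP1B and IAPP fell in DMSO too, by 0.54, 0.38, 0.29, 0.31, 0.38 and 0.36 in the 12-library paired fit. That fit called 492 genes in DMSO (3.08%), 274 higher (1.71%) and 218 lower (1.36%). RYR2, CDH1, PABPC4, DCX and TCF4 rose there by 0.47, 0.28, 0.32, 0.24 and 0.54.

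**Figure D4:**
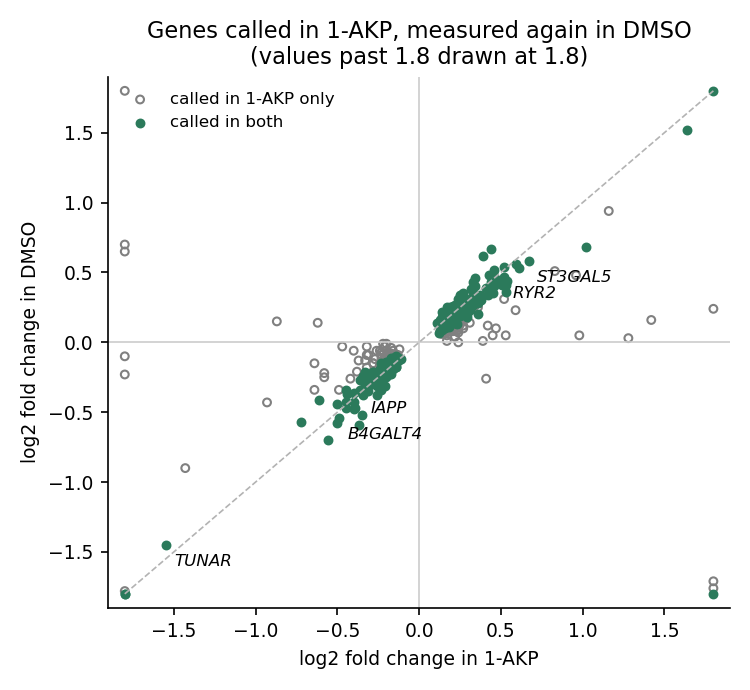
Log2 fold change with TUNAR siRNAs in DMSO (vertical axis) against that in 1-AKP (horizontal axis) for the 369 genes called in the 1-AKP fit of 6 libraries; filled points were also called in DMSO and the dashed line marks equal change. Of these genes 359 share the sign, and TUNAR, RYR2, ST3GAL5, B4GALT4 and IAPP lie near the line.

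The siRNA effect was also tested for a difference between 1-AKP and DMSO. This test called 0 genes in the unpaired fit (0%), where 170 had an unadjusted p under 0.05, 0 in DESeq2 and 1 in the paired fit (0.00625%), RNU6-15P, a U6 pseudogene seen in 3 of the 12 libraries. With the block common to both treatments (lowest adjusted p = 0.102) and in DESeq2 with the pairing it called 0. SLC26A4 (0.98 in 1-AKP and 0.05 in DMSO), TXNIP (0.53 and 0.05), NYNRIN (0.79 and 0.08) and F8 (-0.64 and -0.16) were among the genes that passed in 1-AKP and not in DMSO. Their differences, 0.93, 0.48, 0.70 and -0.49, had an adjusted p of 1 in edgeR, with SEs of 0.301, 0.173, 0.271 and 0.227, so they are not shown to differ.

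By replicate number, the median changes of called genes had the same order as the loss of TUNAR RNA. Genes called in DMSO, whose choice did not use these libraries, had median log2 ratios in 1-AKP, in the direction called, of 0.19 in pair 1, 0.14 in pair 2 and 0.11 in pair 3. The TUNAR ratios of these pairs were -1.99, -1.56 and -1.17. The 369 genes called in 1-AKP gave 0.22, 0.20 and 0.15 in the DMSO pairs, beside TUNAR ratios of -1.88, -1.45 and -1.11. This is a description of 3 pairs in each treatment, in which the replicate number stands for everything that was shared within a pair, including passage. The order by replicate number was the same in both treatments, and its cause was not tested.

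Called genes also differed in length. The risen genes had a median length of 4879 bases, the fallen ones 3355 bases and the genes not called 2864 bases, by the deposited length column. These classes also differed in level, at medians of 71.8, 61.5 and 23 CPM, and the part of level in the contrast was not tested. The longest of 10 equal classes of length held 80 risen and 22 fallen genes, against 15 and 16 in the shortest. Over the 15990 genes the rank correlation of log2 ratio with length was 0.14 in pair 1, 0.04 in pair 2 and 0.0149 in pair 3. It is a description across genes, which are not independent replicates. With the trend on length removed the paired fit called 409 genes, 195 risen and 214 fallen, of which 389 were among the 481. Among the long genes that rose, RYR2 has a length of 16365 bases, CACNA1C 13518 bases and DCHS1 10765 bases, while MAP1B, at 11996 bases, fell.

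**Figure D5:**
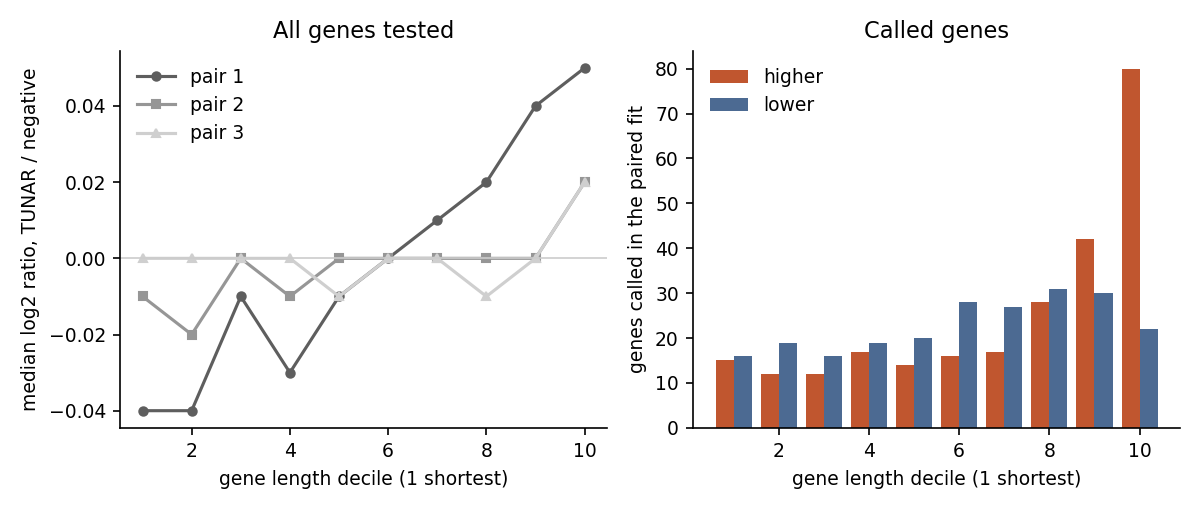
Left, median log2 ratio of TUNAR to negative siRNA (vertical axis) in each pair of 1-AKP libraries by decile of gene length (horizontal axis); right, the number of genes called higher and lower per decile. The longest decile has median ratios of 0.05, 0.02 and 0.02 in pairs 1, 2 and 3 and holds 80 risen and 22 fallen genes.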

How the data were processed

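Polyadenylated RNA of 12 libraries was sequenced on an Illumina HiSeq instrument, per the labels. The authors deposited, per the file headers, an expected count for each gene (an estimated count, not normalised), FPKM (fragments scaled by gene length and library total) and a length for every gene. RSEM, Bowtie, BWA, GRCh37 and hg19 appear in the submitters' processing notes; versions and roles are not given in the sources used here. A gene missing from a file was taken as 0. Of 21508 identifiers 21386 matched a RefSeq symbol.

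Expected counts were rounded (35.3% to 36.0% were not whole), filtered with filterByExpr (minimum count 10, minimum total 15), which kept 15990 genes and 99.9% of counts, and scaled by TMM (0.990 to 1.014). The unpaired fit used glmQLFit (robust) and glmQLFTest in edgeR 4.0.16 under R 4.3.3 on 12 libraries with 4 group means (8 residual degrees of freedom, coefficient of variation 8.74%). The paired fit added replicate number as a block within each treatment (4 degrees of freedom, 2.81%). Pairing was checked by correlating deviations from group means: same-numbered libraries in 1-AKP correlated at 0.416, 0.162 and 0.286, all over the 0.1 required, and others at -0.313 to 0.0734. The p-values were adjusted by Benjamini-Hochberg over all genes tested, threshold 0.05. Libraries of a group differed beyond sampling noise (chi-square per degree of freedom 2.37 to 11.9). DESeq2 1.42.0, limma 3.58.1 on log2(FPKM + 1), other scaling, no filter, passage, length and left-out libraries were alternatives. The fits were tested on simulated data, where the share of false calls in the paired fit was above its nominal threshold and in the unpaired fit below it, so the paired calls may hold more false ones than the adjusted p states.

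Members and the 39 gene lists were chosen with earlier results of these data known. Named genes were TUNAR and the genes the study is about, the 5 lowest unpaired p, the 12 genes of largest paired change in each direction, up to 4 called members per list, and genes called in the test between treatments; others are said to be chosen after their values were seen. TUNAR's coding sequence came from GENCODE 29. Another 4 called genes have no descriptive name and are only counted.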

Additional observations from a re-analysis of the deposited data

Results flagged for a closer look

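RNU6-15P, a pseudogene of the U6 small nuclear RNA, was the only gene whose siRNA effect passed the test of a difference between 1-AKP and DMSO in the paired fit (adjusted p = 0.00018, edgeR's quasi-likelihood test). In 1-AKP it was at 0 in all 3 control libraries and at 0, 0 and 1.84 CPM in the knockdown libraries. In DMSO the negative siRNA gave 0.75, 0.934 and 0 CPM, and all 3 libraries given TUNAR siRNAs were at 0. It was thus seen in 3 of 12 libraries, at 107 bases it is a near copy of other U6 loci, and the unpaired adjusted p was 1. With the block common to both treatments no gene passed this test in edgeR (lowest adjusted p = 0.102), and DESeq2 with the pairing called 0.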

How the results depend on the processing

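Calls in this comparison rested on the pairing, and 3 libraries per group and levels of a few CPM limit what single genes can show. With replicate number as a block within treatment, in place of 0 calls without it, 481 genes were called in 1-AKP; with the block common to both treatments 443; with the 6 libraries of the treatment and the block 369; and with the block and DESeq2 155, library size alone 468 (237 risen, 231 fallen), no filter 569, limma on log2(FPKM + 1) 18, or the length trend removed 409. Without replicate 1, 2 and 3 the block counts were 339, 101 and 242. Without the block, DESeq2 called 15, limma 2 (the microRNA gene entries MIR3658 and MIR6768, named after their values were seen) and no filter 1 (B4GALT4). Leaving out single libraries gave 0 to 3: B4GALT4, SYPL1 and TUNAR without replicate 1 of TUNAR siRNAs in DMSO, and GOLGA6L22, named after its value was seen, without replicate 3 with TUNAR siRNAs and 1-AKP. Passage 74 alone and passage as a covariate each gave 0; passage 75, with 1 library a group, allows no test. A left-out library leaves groups of 2 that are assumed to vary like the others.

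The DMSO comparison called 2 genes without the block (SYPL1 and B4GALT4), 21 with DESeq2, 0 with limma, with passage 74 alone or with 6 libraries, and 0 to 2 without single libraries. With the block it called 492, and 488, 779, 168, 482, 609, 36 and 459 under the same block alternatives in the order common, 6 libraries, DESeq2, library size, no filter, limma and length; without replicate 1, 2 and 3 it called 361, 105 and 260. The difference between treatments stayed at 0 with library size alone, with the block common to both treatments and with DESeq2 with or without the block. It went to 1 with the block within treatment, alone or together with library size alone or the length trend removed, to 2 with limma (MIR3658 and MIR6768), 5 with limma and the block or with no filter and the block, and 17, 1 and 10 with the block without replicate 1, 2 and 3. The log2 fold change of TUNAR was -1.55 with the common block (adjusted p = 0.000674), -1.55 with 6 libraries and the block, -1.53 with DESeq2 and -1.57 with DESeq2 and the block, -1.55, -1.54, -1.32 and -1.54 with the block and library size, no filter, limma or the length trend removed, -1.77 to -1.31 without single libraries, and -1.36 and -1.76 with the block without replicate 1 and 3; the cause of the lost and gained calls was not tested. Of 90 named genes that passed the paired fit 62, 37 and 56 passed without replicate 1, 2 and 3, and 0 changed sign.

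In the unpaired fit, where no gene passed, the sign changed for some genes when single libraries were left out. PCSK1, G6PC2, SYT4 and CRYBA2, which passed the paired fit, were among them. Without single libraries the log2 fold change ran from -0.06 to 0.06 for CTNNB1, -0.02 to 0.04 for EZH2, -0.04 to 0.01 for GSK3A, -0.01 to 0.09 for GSK3B, -0.02 to 0.20 for INS, -0.09 to 0.03 for AXIN2, -0.32 to 0.13 for MAFA, -0.19 to 0.01 for PCSK1, -0.62 to 0.37 for G6PC2, -0.06 to 0.34 for SYT4 and -0.03 to 0.45 for CRYBA2. Passage 74 alone gave -0.01 for EZH2 and 0.01 for GSK3A. With the block and without 1 replicate number, CTNNB1 ran from -0.01 to 0.02, EZH2 from -0.01 to 0.05, GSK3A from -0.07 to 0.01 and AXIN2 from -0.16 to 0.07 (0.07 and 0.04 without replicate 1 and 2).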

Other observations

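Further genes that kept their paired call without any 1 replicate number were singled out after their values were seen, and are given as values. Regulators of the cytoskeleton were among them: WASF3, an activator of actin branching, stood at 72.8, 73.5 and 71.9 CPM in the control and 93.1, 85.3 and 81.9 CPM in the knockdown libraries (log2 fold change 0.25, adjusted p = 0.000405 in edgeR). ESPN, the actin-bundling protein espin, went the other way, from 25.7 ± 1.27 to 18.8 ± 1.96 CPM (-0.45, adjusted p = 0.00034), as did TAGLN2, transgelin 2, from 292 ± 3.31 to 257 ± 13 CPM (-0.18, adjusted p = 0.000374). SYNE2, a nesprin that ties the nucleus to actin, rose by 0.19 and the small GTPase gene ARF5 by 0.18, with overlapping groups for both (adjusted p = 0.000224 and 0.000196).

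RCAN2, an inhibitor of the calcium-dependent phosphatase calcineurin, stood at 62.8, 62.9 and 68.6 CPM in the control and 85.5, 76 and 76 CPM in the knockdown libraries (0.29, adjusted p = 0.000482 in edgeR). DCP2, the enzyme that removes the cap from mRNA, rose by 0.27 in 1-AKP (adjusted p = 0.000858) and was at 0.12 in DMSO (adjusted p = 0.21), a difference that did not pass its own test. KMT2C, a histone H3 lysine methyltransferase, rose by 0.17, and FKBP9, a prolyl isomerase of the endoplasmic reticulum, fell by 0.32 (adjusted p = 0.000738 and 4.49e-05). The ubiquitin ligase genes RNF130 and RNF141 fell by 0.24 and 0.33 (adjusted p = 0.000632 and 0.000375).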
